A study of Mus musculus with 148 samples.

Results

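Genes of the interleukin-1 (IL-1) system were followed across the immune cells of lungs and mammary tumors in a mouse model of breast cancer lung metastasis. The 5 genes were Il1b and Il1a, which encode the IL-1 beta and IL-1 alpha ligands, Il1rn, which encodes the IL-1 receptor antagonist, Il1r2, which encodes the decoy receptor, and Nlrp3, which encodes an inflammasome sensor. They are 5 of the 52634 gene rows of the count tables. They were picked by name with their levels across cell labels and tissues already known, so the level of each gene by label is given as a description, with no test. For each gene, unique molecular identifiers (UMIs, tags that count single captured RNA molecules) were summed over the cells of one label from one mouse and tissue. Sums of at least 10 cells were divided by their total UMIs and multiplied by 1000000 to give counts per that number (CPM).

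IL-1 alpha and IL-1 beta bind the same signaling receptor and start an NF-kappaB response, while the receptor antagonist occupies that receptor without signaling. The decoy receptor binds IL-1 beta but lacks the signaling domain. IL-1 beta is made as an inactive precursor that caspase-1 cleaves inside inflammasomes such as the one formed by NLRP3, so RNA levels do not give the amount of active cytokine. In tumors and inflamed tissue, myeloid cells are known as a main source of IL-1 and of its inhibitors.

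All mice carried photoactivatable GFP (PA-GFP) on a C57BL/6 background. Except for the control mice, 8-week-old females had received EO771 breast cancer cells marked with tdTomato in a mammary gland, and the primary tumor was resected 3 weeks later in the mice followed for metastasis. The groups were lungs of control mice (Normal), lungs of mice with a primary tumor before resection (Pre-MET), lungs of resected mice in which no metastasis was found (Relapse-free), lung tissue with a metastasis (MET), lung away from metastases in the same mice (Distal normal tissue), the photoactivated core of a metastasis (MET Core), its photoactivated rim (MET Invasive margin) and primary tumors (Primary). Cells were sorted as CD31-CD45+, or as CD31-GFP+ after photoactivation, so the core and margin sorts had a different gate from the other groups. The margin plates of mouse 17 name their photoactivation target differently from the other margin plates, the Relapse-free samples of mice 6 and 7 pool GFP+ and GFP- plates, and numbers 8, 9 and 10 mark a mouse in both the Pre-MET and the Primary group.

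In all, 23425 annotated immune cells from 63 samples of 27 mice were used, of which 13014 carried a myeloid label. Samples held 55 to 1974 cells and 48306 to 2745794 UMIs, with a median of 629 to 3690 UMIs per cell, so genes of low level rest on few molecules. The neutrophil markers S100a8, S100a9, Retnlg, Csf3r, Cxcr2, Mmp9 and Lcn2 summed to a mean of 99306 to 369099 CPM in 4 neutrophil labels. They summed to only 18515 CPM in the PMN-MDSC label (neutrophil-associated cells named after polymorphonuclear myeloid-derived suppressor cells), and to 1787 CPM in its single Relapse-free sample. The mean sums in monocyte and macrophage labels were 501 to 1613 CPM. Lymphocytes, which are not known as sources of these ligands, gave the level of free or misassigned RNA. Summed over T, B and NK cells, Il1b averaged 71.0 CPM over the 63 samples (range 0 to 287) and Il1rn averaged 6.92 CPM.

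The neutrophils held most molecules of the IL-1 system. They were 17.0% of the immune cells and 11.4% of all UMIs, but carried 64.0% of the 101894 Il1b UMIs, 62.7% of the 12412 Il1r2 UMIs and 60.9% of the 2126 Nlrp3 UMIs. The antagonist was spread over more lineages. Of 9578 Il1rn UMIs, 37.8% lay in neutrophils, 32.2% in monocytes and 27.2% in macrophages. Il1a was scarce, with 383 UMIs in the whole series, and 40.7% of them lay in neutrophils, 31.1% in macrophages and 24.8% in monocytes. All lymphocytes together held 1.55% of the Il1b UMIs and 1.26% of the Il1rn UMIs, against 33.8% of all UMIs.

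**Figure D1:**
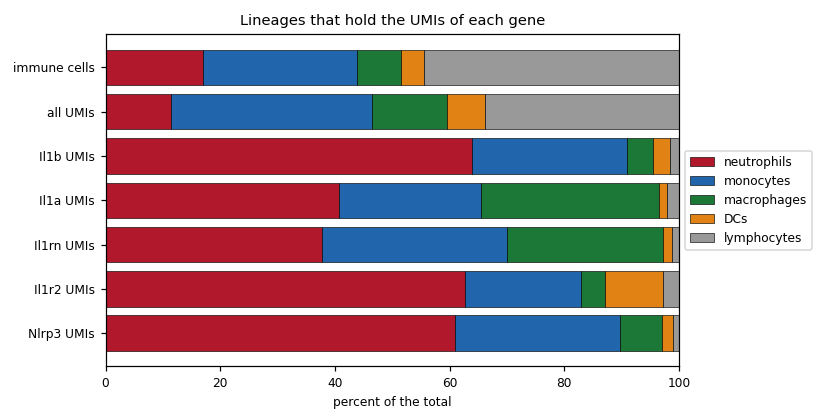
Share of the UMIs of each gene (percent, horizontal axis) held by each cell lineage, pooled over all samples, beside the lineages' shares of all UMIs and of all cells. Neutrophils hold 64.0% of the Il1b UMIs and 37.8% of the Il1rn UMIs, but 11.4% of all UMIs.

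The share of Il1b molecules that neutrophils held varied widely between samples of one tissue. Its mean was 65.3% in distal normal tissue (21.9 to 95.6%, n = 14), 65.5% in the invasive margin (10.1 to 86.6%, n = 6), 48.2% in MET tissue (1.96 to 80.4%, n = 12) and 34.7% in the MET core (0 to 87.3%, n = 12). These ranges overlapped over most of their length. In the 4 primary tumors neutrophils held 9.55% (6.17 to 13.01%), and monocytes held 67.7%. Neutrophils made up a mean of 21.0% of the cells in distal tissue, 19.2% in the margin, 15.6% in MET tissue, 10.4% in the core and 2.55% in primary tumors. Neutrophil Il1b itself was 17300 and 22153 CPM in the 2 tumors with enough neutrophils and had a median of 10608 CPM in 6 cores (6203 to 19349 CPM). In Normal lungs macrophages held 73.5% of the Il1rn UMIs.

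Il1b, the secreted ligand cleaved by caspase-1, was highest in neutrophils that express Ptgs2 (Neut_Ptgs2), with 18813 ± 3966 CPM (mean ± SD, n = 29 samples). Interferon-stimulated neutrophils (Neut_Ifit3) had 13992 ± 2655 CPM (n = 16), Neut_Lcn2 cells had 10533 ± 3703 CPM (n = 24) and PMN-MDSC had 8187 ± 4031 CPM (n = 5). The gap between the first and the second label was larger than the greater of their SDs, whereas Neut_Ifit3 and Neut_Lcn2, and Neut_Lcn2 and PMN-MDSC, did not differ beyond their spread. Not all neutrophils were high, since Neut_Camp cells, which carry granule genes of young neutrophils, had 745 ± 348 CPM (n = 4).

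Below the neutrophils came Mon_Thbs1 monocytes, with 3154 ± 751 CPM of Il1b (n = 25), and the gap above and the gap below this label both exceeded the larger SD. Mon_MHC-II (2051 ± 847 CPM, n = 23), Mon_Ace (1998 ± 598 CPM, n = 32) and the cDC2 dendritic cells (1509 ± 900 CPM, n = 16) followed without a gap beyond their spread. Among macrophages, Mac_Isg20 cells had 1435 ± 747 CPM (n = 15) and Mac_Cd81 cells 1338 ± 891 CPM (n = 9), both described by the study as tumor-associated. Mac_Gpnmb cells, the Trem2-expressing regulatory macrophages, had 412 ± 365 CPM (n = 14), and the alveolar Mac_Cd9 cells had 278 ± 251 CPM (n = 11). Lymphoid labels lay between 30.5 and 173 CPM.

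**Figure D2:**
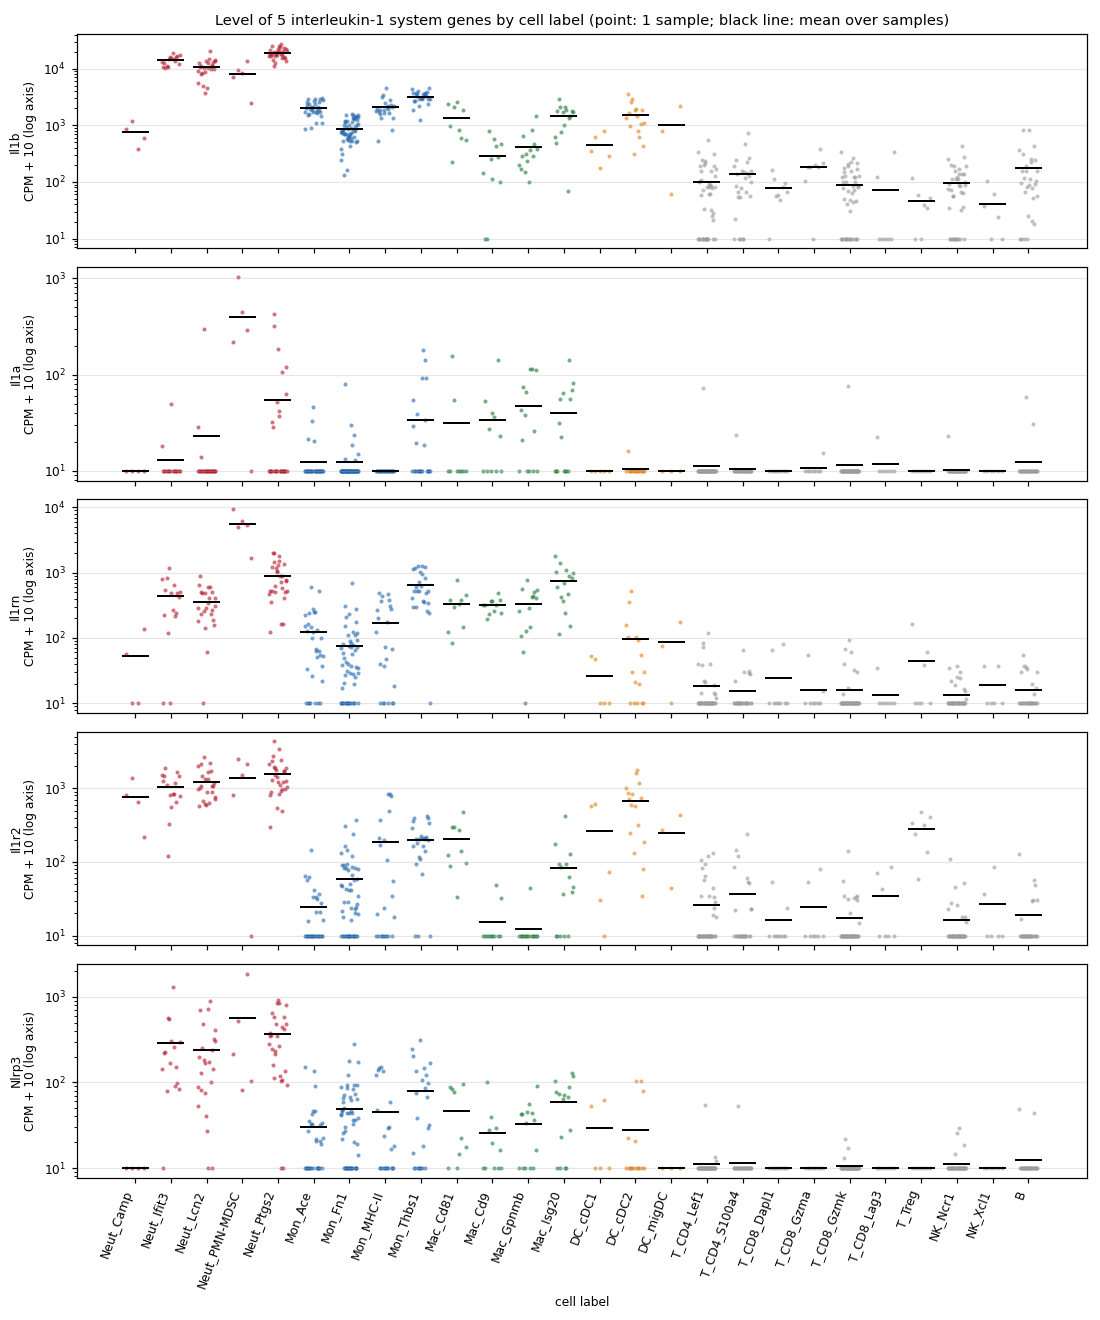
CPM + 10 of each gene (vertical axis, logarithmic) in each immune label (horizontal axis), with one point per sample of at least 10 cells and a black line at the mean. The neutrophil labels other than Neut_Camp lead for Il1b, with means of 8187 to 18813 CPM, and PMN-MDSC has the highest mean for Il1rn, 5524 CPM.

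Il1a, the ligand that is active without cleavage, was highest in PMN-MDSC, with 390 ± 390 CPM (n = 5). Its values there were 205 and 1029 CPM in the MET cores of mice 17 and 37, 436 and 278 CPM in the MET tissue of mice 31 and 32, and 0 CPM in the Relapse-free mouse 7. The spread over these 5 samples was as large as the mean. Neut_Ptgs2 (44.8 CPM), Mac_Gpnmb (37.0 CPM), Mac_Isg20 (29.5 CPM) and Mon_Thbs1 cells (23.9 CPM) followed, and no neighbors in this order differed beyond their spread. Il1a was at 0 in all sums of at least 10 cells of 7 labels, Neut_Camp and Mon_MHC-II among them. Smaller sums of these labels held 4 Il1a UMIs in Mon_MHC-II, 3 in cDC1 and 1 in migratory DCs.

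Il1rn, the antagonist, also had its highest mean in PMN-MDSC, and by a wide margin. The 5 samples of this label had 9469, 4982, 6098, 5380 and 1693 CPM in core 17, core 37, MET 31, MET 32 and Relapse-free 7, a mean of 5524 ± 2779 CPM. Each of these exceeded the mean of the next label, Neut_Ptgs2 with 867 ± 529 CPM (n = 29), and the gap between both means was larger than either SD. The ranges still overlapped, since the highest Neut_Ptgs2 sample, at 2001 CPM, lay above the Relapse-free PMN-MDSC sample. Mac_Isg20 cells had 727 ± 470 CPM (n = 15) and Mon_Thbs1 cells 631 ± 369 CPM (n = 25).

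From Neut_Ptgs2 downward, no neighbors in the order of Il1rn levels differed beyond their spread. Alveolar Mac_Cd9 cells (307 ± 82.7 CPM, n = 11) were followed by a drop to 157 CPM in Mon_MHC-II, which was smaller than the larger SD. The 4 macrophage labels lay between 307 and 727 CPM. Mon_Fn1 cells, the most numerous monocytes, had 65.2 CPM, and lymphoid labels had 3.41 to 33.7 CPM.

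Il1r2, the decoy receptor, was high in all 5 neutrophil labels. Its mean was 1551 ± 890 CPM in Neut_Ptgs2 (n = 29), 1386 CPM in PMN-MDSC, 1210 CPM in Neut_Lcn2, 1021 CPM in Neut_Ifit3 and 761 CPM in Neut_Camp. These neighbors did not differ beyond their spread. Neut_Camp cells, which were low in Il1b, thus had Il1r2 within the spread of the other neutrophils.

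Outside the neutrophils, Il1r2 was highest in cDC2 cells, with 669 ± 522 CPM (n = 16), and then in regulatory T cells (T_Treg), with 274 ± 149 CPM (n = 7). The regulatory T cells had 328 and 233 CPM in the 2 core samples, 49.3 CPM in the margin sample, and 474, 310, 127 and 394 CPM in the 4 primary tumors. The other lymphoid labels had 6.20 to 27.0 CPM. Mac_Cd81 (194 CPM) and Mon_Thbs1 (188 CPM) had intermediate levels, while Mac_Cd9 (5.54 CPM) and Mac_Gpnmb (2.50 CPM) lay at the lymphoid level.

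Nlrp3, the inflammasome sensor, followed the same neutrophil labels at a low count. It averaged 548 ± 752 CPM in PMN-MDSC (n = 5), where mouse 32 alone had 1855 CPM. Its means were 355 ± 262 CPM in Neut_Ptgs2, 275 CPM in Neut_Ifit3 and 232 CPM in Neut_Lcn2, and 69.2 CPM in Mon_Thbs1. Nlrp3 was at 0 in all sums of at least 10 cells of Neut_Camp, migratory DCs and 5 lymphoid labels. No neighbors in its order differed beyond their spread.

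Shares of cells with a molecule gave the same leading labels. After each cell was thinned to 500 UMIs, an Il1b UMI was found in 90.0% of neutrophils, 37.4% of monocytes, 26.4% of DCs and 23.0% of macrophages, against 4.86% of T cells, 5.90% of NK cells and 5.97% of B cells. Without thinning, the shares were 94.0% in neutrophils, 56.4% in monocytes, 41.5% in macrophages and 11.4% in T cells, at median depths of 989, 1452, 1673 and 997 UMIs per cell. The antagonist was seen in fewer cells. An Il1rn UMI was found in 15.3% of neutrophils, 13.7% of macrophages and 5.26% of monocytes, against 0.424% of T cells. An Il1r2 UMI was found in 36.6% of neutrophils, 10.8% of DCs and 8.25% of regulatory T cells, against 0.876% of all T cells.

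Many PMN-MDSC carried ligand and antagonist together. With thinned cells, both Il1b and Il1rn were seen in 43.2% of PMN-MDSC, in 19.8% of Neut_Ptgs2, in 10.0% of Mon_Thbs1 and in 8.91% of Mac_Isg20 cells. Taken singly, Il1b was seen in 68.3% and Il1rn in 56.1% of PMN-MDSC, and in 97.5% and 20.2% of Neut_Ptgs2. Whether the 2 genes met in the same cell more often than these single shares would give was not tested. Antagonist without ligand was seen in 12.9% of PMN-MDSC, in 11.5% of Mac_Isg20 and in 9.79% of Mac_Cd9 cells. The number of Il1rn UMIs for every 100 Il1b UMIs was averaged over samples with at least 10 Il1b UMIs, which leaves out samples low in Il1b. It was 157 in Mac_Cd9 (7 of 11 samples), 108 in Mac_Gpnmb (9 of 14) and 73.8 in PMN-MDSC. It was 60.6 in Mac_Isg20 (13 of 15), 34.8 in Mac_Cd81 (8 of 9) and 23.0 in Mon_Thbs1. In the remaining monocyte labels it was 6.52 to 8.02, and in Neut_Ptgs2, Neut_Ifit3 and Neut_Lcn2 it was 3.14 to 4.81. These 3 neutrophil labels thus held many more ligand than antagonist molecules. The spread of the ratio was wide in macrophages, with an SD of 158 and a median of 72.7 in Mac_Cd9, and an SD of 108 and a median of 50 in Mac_Gpnmb. Pooled over all cells, Mac_Cd9 held 362 Il1rn and 290 Il1b UMIs, whereas Mac_Gpnmb held 475 Il1rn and 769 Il1b UMIs.

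Both ligand genes and the antagonist gene lie on chromosome 2, on GENCODE coordinates of GRCm38. Il1a spans chr2:129299610-129309972 and Il1b chr2:129364570-129371139, both on the minus strand with 54597 bases between them, and Il1rn spans chr2:24336853-24351494 on the plus strand. Il1r2 lies at chr1:40074079-40125231 and Nlrp3 at chr11:59541568-59566956, both on the plus strand. The start regions of the 3 chromosome 2 genes, from RefSeq on GRCm38.p6, are shown because all 3 were high in PMN-MDSC. Each runs from 250 bases before to 50 bases after an annotated start, 5′ to 3′ on the gene's strand. Capitals mark matches to the TATA box (TATAAA) or the AP-1 motif (TGANTCA), searched on both strands.
Il1b, chr2:129371090-129371389, minus strand: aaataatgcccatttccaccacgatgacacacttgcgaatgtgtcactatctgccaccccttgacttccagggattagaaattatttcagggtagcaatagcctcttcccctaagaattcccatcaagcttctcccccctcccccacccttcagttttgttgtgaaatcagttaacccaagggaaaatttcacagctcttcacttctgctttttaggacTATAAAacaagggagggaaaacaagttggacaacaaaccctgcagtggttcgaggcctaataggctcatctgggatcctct
Il1a, chr2:129309923-129310222, minus strand: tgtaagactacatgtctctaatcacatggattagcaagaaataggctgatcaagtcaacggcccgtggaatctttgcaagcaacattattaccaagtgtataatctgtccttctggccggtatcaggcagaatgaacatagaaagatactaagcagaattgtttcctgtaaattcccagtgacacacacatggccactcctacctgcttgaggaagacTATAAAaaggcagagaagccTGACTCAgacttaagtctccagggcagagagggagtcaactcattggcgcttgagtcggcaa
Il1rn, chr2:24336610-24336909, plus strand: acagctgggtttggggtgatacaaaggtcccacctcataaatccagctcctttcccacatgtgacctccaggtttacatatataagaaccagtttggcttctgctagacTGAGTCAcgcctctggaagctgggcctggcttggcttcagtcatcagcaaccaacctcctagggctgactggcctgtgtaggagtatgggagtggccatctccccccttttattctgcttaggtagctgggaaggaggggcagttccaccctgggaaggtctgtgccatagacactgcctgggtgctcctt

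The Il1b and Il1a windows each hold a TATA box, at bases -31 to -26 and -32 to -27 from the start. Il1a has an AP-1 match (TGACTCA) at -12 to -6, and this Il1rn window has one (TGAGTCA) at -141 to -135. The Il1rn windows that begin at chr2:24345041 and chr2:24345121, not shown, hold no AP-1 match. The latter has a TATA match (TTTATA) at bases 14 to 19 from its start. Of 32851 promoter windows of the same length, 13.6% hold the TATA letters and 7.81% the AP-1 letters, so such matches are common. No match to the C/EBP letters TTGCNNAA, to the interferon response element (ISRE) or to the kappaB consensus was found in the 3 windows shown. Those motifs occur in 10.8%, 3.44% and 8.46% of all windows, and 1 of 2 Nlrp3 windows holds a kappaB match. The UMI counts do not tell which annotated start was used.

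The comparison of metastasis-bearing lung with distal normal tissue asked how the IL-1 system differed within the metastatic organ. Sums per mouse, tissue and lineage were tested across all genes with edgeR's quasi-likelihood test and Benjamini-Hochberg adjustment. The mouse was the replicate. The main fits did not pair the tissues of the same mouse, and alternative fits took mouse as a block. The genes were chosen with these samples' levels known, so the p-values are no independent support. In macrophages 2 of the 5 genes passed the low-count filter, Il1b and Il1rn. Both were called higher in MET tissue, where 9.54% of 1289 genes were called. The same 2 genes were tested in monocytes, and Il1rn was called higher, beside 1.48% of 2098 genes. None of the 4 genes tested in neutrophils passed, and that fit called 0% of 715 genes.

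Macrophage Il1b ranged from 277 to 2006 CPM in the 9 MET samples (median 1325 CPM) and from 112 to 430 CPM in the 6 distal samples (median 167 CPM). The lowest MET sample, that of mouse 30, lay within the distal range, and the other 8 lay above it. The means were 1198 and 226 CPM, a log2 fold change of 2.70 (SE 0.43, a 6.51-fold rise, adjusted p = 0.000835 by edgeR). Of the 1289 genes tested in macrophages, 9.54% were called in this comparison. Within the 5 mice that had both tissues, Il1b was higher in MET tissue in 5 of 5, and the fit with mouse as a block gave a log2 fold change of 2.07.

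Macrophage Il1rn ranged from 226 to 813 CPM in MET tissue (median 559 CPM) and from 157 to 340 CPM in distal tissue (median 254 CPM). The MET sample of mouse 26 was the lowest and lay among the distal samples. The means were 542 and 255 CPM, a log2 fold change of 1.26 (SE 0.37, adjusted p = 0.0280 by edgeR). Although it was higher in 5 of 5 mice, Il1rn did not pass with mouse as a block (log2 fold change 1.13, adjusted p = 0.112 by edgeR), with sequencing batch as a term (adjusted p = 0.0795 by edgeR) or with cells of at least 1000 UMIs (adjusted p = 0.304 by edgeR, with 2 distal samples). All distal macrophage sums together held 27 Il1b and 36 Il1rn UMIs in 89 cells, so both folds rest on few molecules.

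Il1r2 was below the filter on low counts in macrophages. It was seen with 55 UMIs in the MET sums and with 0 in the distal sums, where 3 UMIs would have been 22.3 CPM. With no filter on low counts it was called higher in MET tissue (adjusted p = 0.0348 by edgeR). The MET mean was 45.3 CPM, with 226 CPM in mouse 26 and at most 58.4 CPM in the others.

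Monocyte Il1rn ranged from 16.0 to 718 CPM in the 13 MET samples (median 215 CPM) and from 0 to 127 CPM in the 14 distal samples (median 53.8 CPM). Of the MET samples, 10 lay above the highest distal sample. The means were 267 and 57.7 CPM, a log2 fold change of 2.20 (SE 0.38, a 4.58-fold rise, adjusted p = 0.000659 by edgeR), and 11 of 13 mice had the higher value in MET tissue. Of 2098 genes tested in monocytes, 1.48% were called. The change was 1.52 to 2.57 on a log2 scale within each of 3 sequencing batches.

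Monocyte Il1b did not pass the same test. Its range was 485 to 3392 CPM in MET tissue (median 1761 CPM) and 308 to 2259 CPM in distal tissue (median 933 CPM), and these ranges overlapped widely. The means of 1673 and 1043 CPM gave a log2 fold change of 0.77 (SE 0.27, adjusted p = 0.20 by edgeR). With mouse as a block, the log2 fold change was 0.75 and passed (adjusted p = 0.0277 by edgeR, higher in 10 of 13 mice). That fit called 3.99% of 1979 genes. Il1a, Il1r2 and Nlrp3 were below the filter in monocytes. Il1a had 66 UMIs in MET and 5 in distal monocytes, and 68 in MET and 2 in distal macrophages. The distal macrophage sums held fewer UMIs in all, and 3 UMIs would be 22.3 CPM there against 2.25 CPM in MET. Macrophage Il1a was 0 to 83.2 CPM in MET (median 50.0 CPM) and 0 to 37.3 CPM in distal tissue (median 0 CPM). Within mice it was higher in MET tissue in 3 of 5 and lower in 1. With no filter on low counts Il1a was called in monocytes (log2 fold change 3.03, adjusted p = 0.0146 by edgeR). In macrophages it was not (adjusted p = 0.275 by edgeR). Monocyte Il1b was called as well with no filter (adjusted p = 0.0204 by edgeR).

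**Figure D3:**
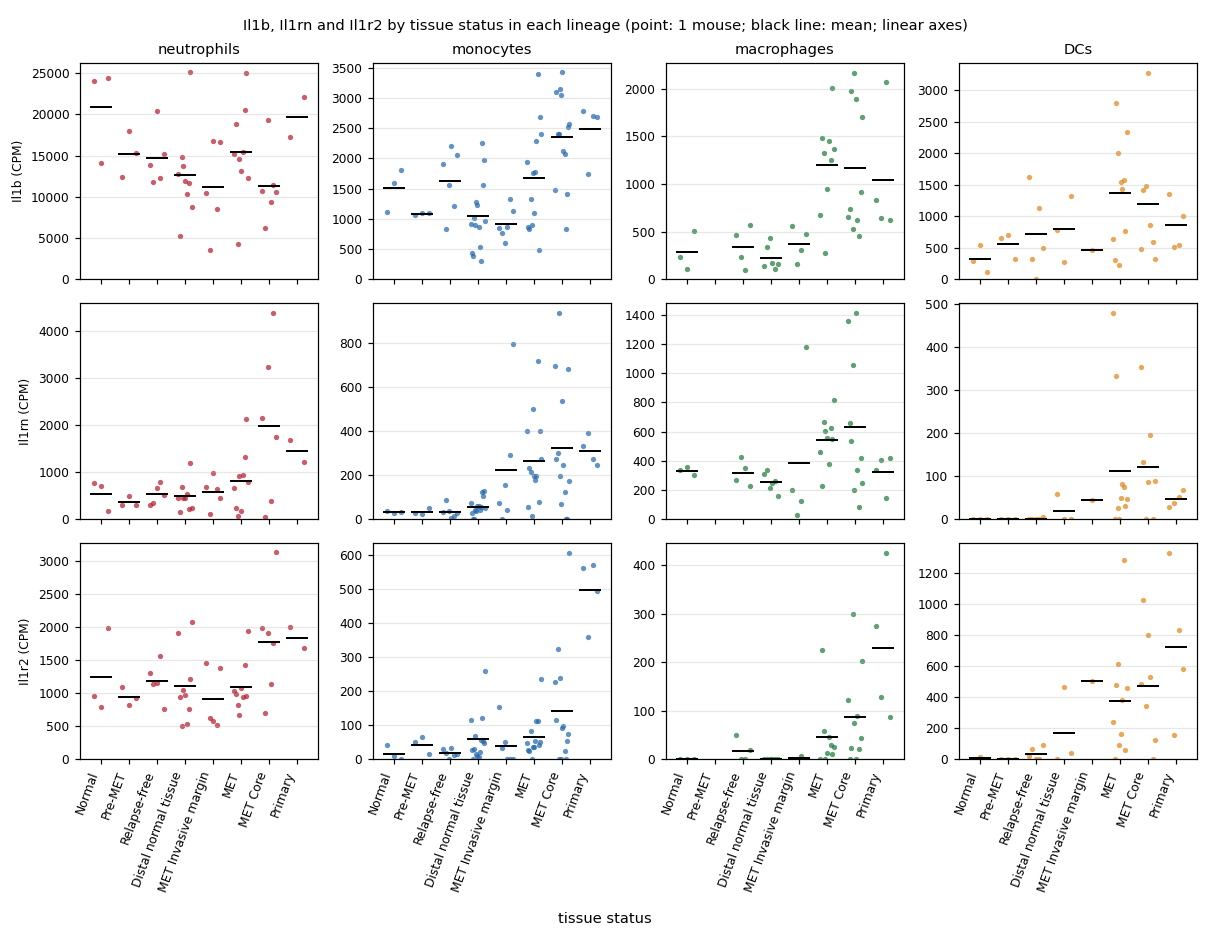
CPM of Il1b, Il1rn and Il1r2 (vertical axes, linear) in neutrophils, monocytes, macrophages and DCs by tissue group (horizontal axis), with one point per mouse and a black line at the mean. Macrophage Il1b is at a mean of 226 CPM in distal normal tissue and 1198 CPM in MET tissue, while neutrophil Il1b lies between 11205 and 20870 CPM on average in every group.

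Neutrophil Il1b ranged from 4326 to 24970 CPM in 9 MET samples (median 15167 CPM) and from 5227 to 25144 CPM in 9 distal samples (median 11899 CPM). The ranges overlapped over most of their length. The log2 fold change was 0.26 (SE 0.25, adjusted p = 0.999 by edgeR). The values for the other genes were 0.74 (SE 0.41) for Il1rn, -0.06 (SE 0.28) for Il1r2 and 0.44 (SE 0.48) for Nlrp3. Of 715 genes tested in neutrophils 0% were called by edgeR, with 26 at an unadjusted p under 0.05, so this fit called no gene of any kind. In DCs, 0% of 621 genes were called and 47 had an unadjusted p under 0.05. The log2 fold changes there were 0.73 (SE 0.61) for Il1b and 1.79 (SE 1.20) for Il1r2, with 3 distal samples.

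Whether lineages differed in their change was tested within mice, by an exact two-sided sign-flip permutation test on log2(CPM + 10), for 15 pairs of gene and lineages. In the 6 mice with both lineages in both tissues, the change of Il1rn was smaller in neutrophils than in monocytes in all 6, by 1.64 ± 1.05 (SD) on the log2 scale. Its exact p of 0.03125 is the smallest that 6 mice allow, and its adjusted p over the 15 tests was 0.1875. The change of Il1b was also smaller in neutrophils in all 6 mice, by 0.65 ± 0.34 (exact p = 0.03125, adjusted p = 0.1875). Il1rn changed more in monocytes than in macrophages in 5 of 5 mice (1.50 ± 1.11, exact p = 0.0625, the smallest possible). With so few mice the 15 tests could not have passed the adjustment even at the smallest p each allows, so they do not show whether the lineages differ.

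**Figure D4:**
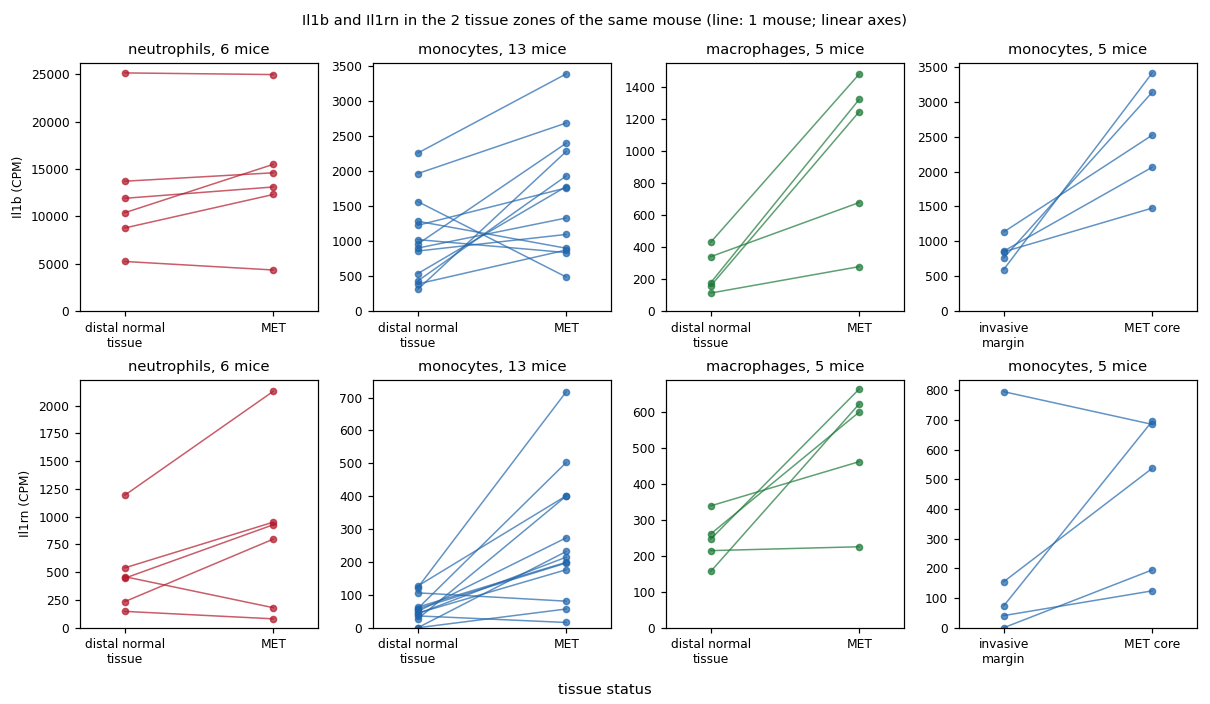
CPM of Il1b and Il1rn (vertical axes, linear) in 2 tissue zones of the same mouse, with one line per mouse, for distal normal tissue against MET in 3 lineages and for margin against core in monocytes. From distal to MET tissue, lines rise in 5 of 5 mice for both genes in macrophages, in 10 of 13 for Il1b and 11 of 13 for Il1rn in monocytes, and in 4 of 6 for both genes in neutrophils, and from margin to core monocyte Il1b rises in 5 of 5.

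The mix of labels within a lineage moved together with these levels. Of distal macrophages, on average 63.6% were alveolar Mac_Cd9 and 7.19% Mac_Isg20 cells, whereas MET macrophages held 7.65% Mac_Cd9 and 39.2% Mac_Isg20 cells. Among monocytes, the mean share of Mon_Thbs1 cells was 5.28% in distal tissue, 25.5% in MET tissue and 43.7% in the core. Within Mon_Thbs1 cells, pooled over samples, Il1b was at 3303 CPM in distal tissue, 3249 CPM in MET tissue, 3222 CPM in the core, 1973 CPM in the margin and 3600 CPM in primary tumors. The pooled Il1rn of Mon_Thbs1 cells was 340 CPM in distal tissue, 668 CPM in MET tissue, 720 CPM in the core, 976 CPM in the margin, 308 CPM in primary tumors and 14.3 CPM in Relapse-free lungs. The margin value rests on 94 Il1rn UMIs in 31 cells, of which mouse 36 held 57 UMIs in 7 cells (2308 CPM) and mouse 17 held 32 UMIs in 13 cells (515 CPM).

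Some difference was also seen inside labels. Pooled Il1b was 147 CPM in distal and 842 CPM in MET Mac_Gpnmb cells, and 74.9 CPM and 431 CPM in Mac_Cd9 cells, although the distal values rest on 5 and 7 UMIs. In Mac_Cd81 cells it was 1123 CPM in distal (59 UMIs) and 1727 CPM in MET tissue. In fits on Mon_Fn1 or Mon_Ace cells alone, the log2 fold change of Il1b between MET and distal tissue was 0.47 and 0.16, and neither was called. Pooled Il1b of Mon_Ace cells was 2453 CPM in distal and 2377 CPM in MET tissue. How much of a lineage's difference the label mix accounts for was not tested. The summed neutrophil markers had means of 1163 CPM in MET and 1850 CPM in distal monocytes, and of 632 CPM in MET and 1061 CPM in distal macrophages. Of single markers, mean Csf3r and Mmp9 were higher in MET tissue, at 91.4 against 80.6 and 11.6 against 5.99 CPM in monocytes and at 46.6 against 23.1 and 8.29 against 0 CPM in macrophages. Their part in the result was not tested.

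**Figure D5:**
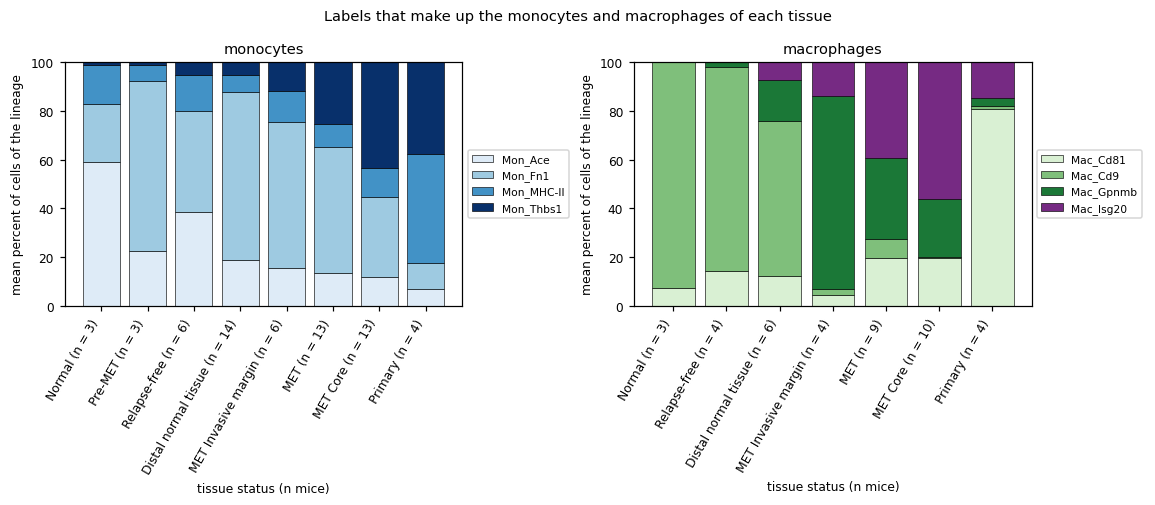
Mean share of each label (percent, vertical axis) within monocytes and macrophages of each tissue group (horizontal axis, with the number of mice). Mac_Cd9 makes up 63.6% of distal normal and 7.65% of MET macrophages, and Mon_Thbs1 5.28% and 25.5% of the monocytes.

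The core and the invasive margin of metastases were compared to place the IL-1 system in space. Among the genes of the family that passed the low-count filter, Il1b in monocytes had the clearest difference. It ranged from 840 to 3419 CPM in 13 cores (median 2401 CPM) and from 594 to 1320 CPM in 6 margins (median 853 CPM). Of the cores, 12 lay above every margin sample. The log2 fold change was 1.33 (SE 0.28, a 2.52-fold difference), and it missed the threshold (adjusted p = 0.0620 by edgeR). This fit called 0% of 1025 genes, with 84 at an unadjusted p under 0.05.

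Within the 5 mice that gave both sites, monocyte Il1b was 1477 against 849 CPM in mouse 17, 3141 against 759 CPM in mouse 26, 3419 against 594 CPM in mouse 28, 2064 against 858 CPM in mouse 31 and 2525 against 1134 CPM in mouse 36. All 5 mice had the higher value in the core. With mouse as a block the log2 fold change was 1.53 and passed (adjusted p = 0.00198 by edgeR), and Il1rn, at 1.83, did not (adjusted p = 0.0540 by edgeR). That fit called 4.28% of 1354 genes. Without the differently named margin of mouse 17, the unblocked test of Il1b gave an adjusted p = 0.259 by edgeR. Monocyte Il1r2 was below the low-count filter. It was also higher in the core in 5 of 5 mice, by a mean of 1.74 on the log2 scale. However, mouse 17 held 106 of the 110 Il1r2 UMIs in the margin monocyte sums. The margin values of mice 31 and 36 were 0 CPM, against 24.9 and 75.2 CPM in their cores. The mean thus rests largely on margins with few or no Il1r2 molecules. With no filter Il1r2 was not called (adjusted p = 0.338 by edgeR).

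Macrophage Il1b had a median of 825 CPM in 10 cores (455 to 2164 CPM) and values of 557, 165, 305 and 470 CPM in the margins of mice 17, 32, 33 and 36. Of the cores, 8 lay above every margin sample, and the log2 fold change was 1.53 (SE 0.49, adjusted p = 0.203 by edgeR; 0% of 1743 genes called, 178 at an unadjusted p under 0.05). In Mac_Gpnmb cells only, the log2 fold change over 3 cores and 4 margins was -0.60, whereas pooled over all samples with these cells Il1b was 593 CPM in the core (137 UMIs) and 352 CPM in the margin (111 UMIs). These cells made up 79.4% of margin and 23.5% of core macrophages, while Mac_Isg20 cells made up 13.8% and 56.4%. Macrophage Il1r2 was seen in the core with 77 UMIs and in the margin with 1.

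In macrophages and monocytes, the margin of mouse 36 had the highest Il1rn of the margins. It had 1182 CPM of Il1rn in macrophages and 796 CPM in monocytes, against 27.4 to 198 CPM and 0 to 293 CPM in the other margins. The log2 fold change of macrophage Il1rn between core and margin was 0.56 with this sample and 2.18 without it, and neither was called. Monocytes were not refitted without it.

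Neutrophils of core and margin were not among the fitted comparisons and are described only. Il1rn was 2163 against 697 CPM in mouse 17, 58.5 against 117 CPM in mouse 26, 3236 against 976 CPM in mouse 28 and 4390 against 448 CPM in mouse 36. The core was higher in 3 of 4 mice. PMN-MDSC, the label richest in Il1rn, made up 19.99% of core neutrophils on average (0 to 35.3%, n = 6) and 0.47% of margin neutrophils. Il1r2 was higher in the core in 4 of 4 mice. Neut_Ptgs2 cells also had more Il1rn in the core, at 1801 ± 311 CPM (n = 3), than in MET tissue (1304 ± 291 CPM, n = 6) or distal tissue (529 ± 374 CPM, n = 6), and this order was not tested.

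Cores were compared with primary tumors to set the metastatic site beside the site of origin. Only 1 sequencing batch held both groups, with 2 cores and 1 tumor, so batch and site can hardly be told apart. Tumor samples were also deeper, with a median of 1972 to 3690 UMIs per cell against 686 to 1788 in cores. Il1b and Il1rn did not pass the test in either lineage, and of the genes tested Il1r2 had the largest log2 fold change in size. Il1a was below the filter on low counts, with 21 UMIs in core and 0 in tumor monocytes, and 20 in core and 0 in tumor macrophages. With no filter it was called higher in the core in both lineages (adjusted p = 0.00444 and 0.00626 by edgeR). Those fits called 1.49% of 21407 and 1.33% of 19466 genes. Only 5 of 13 core monocyte sums (median 0 CPM) and 6 of 10 core macrophage sums (median 15.6 CPM) held any Il1a. Monocyte Il1r2 had a median of 90.9 CPM in 13 cores (0 to 605 CPM) and values of 561, 360, 571 and 495 CPM in the primary tumors of mice 10, 38, 8 and 9. Only 1 core, that of mouse 37, reached the tumors' range. The log2 fold change was -1.78 (SE 0.49, adjusted p = 0.0590 by edgeR), where 1.47% of 1835 genes were called. Il1r2 passed in 3 of 11 alternatives, with DESeq2 (adjusted p = 0.0466), with no filter on low counts (adjusted p = 0.000835 by edgeR) and with a minimum of 20 cells (adjusted p = 0.0182 by edgeR). With batch as a term it was -0.99 (adjusted p = 0.856 by edgeR).

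Among primary tumor monocytes, 44.6% were Mon_MHC-II cells, and in this label Il1r2 was 726 ± 163 CPM in the 4 tumors against 32.7 ± 56.6 CPM in 3 Pre-MET lungs and 67.5 ± 105 CPM in 3 Normal lungs. Pooled over samples, Il1r2 of Mon_MHC-II cells was 695 CPM in tumors, 153 CPM in the core (20 UMIs) and 188 CPM in the margin (12 UMIs). Macrophage Il1r2 was 229 ± 153 CPM in tumors and 87.6 ± 97.7 CPM in cores (log2 fold change -1.45, SE 0.57, adjusted p = 0.161 by edgeR; 4.53% of 2162 genes called). Mac_Cd81 cells made up 80.9% of tumor and 19.7% of core macrophages, and Mac_Isg20 cells 14.6% and 56.4%. The part of this mix in the macrophage differences was not tested. The log2 fold changes of Il1b were -0.16 (SE 0.30) in monocytes and 0.17 (SE 0.44) in macrophages. Those of Il1rn were 0.09 (SE 0.51) and 0.87 (SE 0.52).

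Dendritic cells also had their highest mean Il1r2 in primary tumors, as values with no test. Their Il1r2 was 722 ± 490 CPM in primary tumors (n = 4), 471 ± 359 CPM in cores (n = 7), 504 CPM in the single margin sample and 376 ± 377 CPM in MET tissue (n = 10). It was 35.7 ± 41.3 CPM in Relapse-free lungs (n = 5) and 4.75 ± 8.22 CPM in Normal lungs (n = 3), and no Il1r2 UMI was seen in 37 Pre-MET DCs, where 3 UMIs would have been 44.1 CPM. In the cDC2 label alone, Il1r2 was 989 ± 616 CPM in primary tumors and 90.5 ± 78.5 CPM in Relapse-free lungs. Pooled cDC2 Il1r2 was 990.3 CPM in primary tumors, 764 CPM in the core, 591 CPM in the margin, 507 CPM in MET and 61.5 CPM in distal tissue.

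The premetastatic lung was compared with the Normal lung to ask whether the IL-1 system differed before metastases were visible. Neutrophil Il1b was 12366, 15322 and 18020 CPM in the 3 Pre-MET lungs and 14095, 24062 and 24454 CPM in the 3 Normal lungs, and the groups overlapped. The log2 fold change was -0.48 (SE 0.26, adjusted p = 0.627 by edgeR; 1.06% of 377 genes called). Monocyte Il1b was 1065, 1097 and 1099 CPM against 1106, 1591 and 1808 CPM, so the Pre-MET samples lay just below the lowest Normal sample. Mon_Ace cells made up 59.0% of Normal and 22.6% of Pre-MET monocytes, and Mon_Fn1 cells 23.8% and 69.6%, and the part of this mix in the difference was not tested. The log2 fold change of Il1b was -0.59 in Mon_Fn1 cells and had the other sign in Mon_Ace (0.32) and Mon_MHC-II cells (0.49). The difference over all monocytes was not called (log2 fold change -0.50, SE 0.18, adjusted p = 0.150 by edgeR; 4.32% of 4953 genes called). Il1rn was at 24.4 to 49.9 CPM in Pre-MET and 28.8 to 35.9 CPM in Normal monocytes. The plates of Normal lungs made up a sequencing batch of their own, so batch and group cannot be told apart here.

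Of 45 other genes of the pathway, 44 had a row in the tables, and few were called. In MET against distal macrophages, 2 of 7 tested genes were called, beside 9.54% of all genes tested, and both were lower. These were Il18, an IL-1 family ligand also cleaved by caspase-1 (68.1 against 329 CPM, log2 fold change -1.89, adjusted p = 0.0149 by edgeR), and Txnip, which binds NLRP3 (113 against 338 CPM, -1.37, adjusted p = 0.0420). Neither was called with no filter on low counts or with cells of at least 1000 UMIs, and with mouse as a block, where Il18 was below the filter, Txnip was called. With no filter, which called 2.68% of 17180 genes, the called pathway genes were 5 induced by IL-1 signaling, Nfkbia, Tnfaip3, Cxcl2, Cxcl3 and Ptgs2, and all 5 were higher in MET tissue (log2 fold changes 1.59 to 5.33, Cxcl3 and Ptgs2 with 0 and 1 UMIs in distal tissue). The median over the 7 genes was 0.29 and over all genes tested 0.15 on the log2 scale.

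In core against primary macrophages, 3 of 14 tested pathway genes were called, beside 4.53% of all genes tested. The neutrophil chemokine gene Cxcl2 was higher in the core (828 against 96.5 CPM, log2 fold change 3.14, adjusted p = 0.00161 by edgeR), as was Nfkbia, an inhibitor that NF-kappaB induces (926 against 274 CPM, 1.80, adjusted p = 0.0470). Tmem176b, a cation channel gene described as an inflammasome inhibitor, was lower (32.7 against 272 CPM, -2.68, adjusted p = 0.00375). Nfkbia lost its call when any one of the 4 tumors was left out, and in Mac_Cd81 cells only it was called lower in the core (log2 fold change -3.11, adjusted p = 0.0416 by edgeR). With sequencing batch as a term 0 of these genes were called. The macrophage labels of cores and tumors also differed, as given above, and their part in these calls was not tested. The median of the 14 was -0.22, beside -0.01 for all genes.

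In Pre-MET against Normal lungs, 1 of 6 tested pathway genes was called in neutrophils and 2 of 22 in monocytes, beside 1.06% and 4.32% of all genes tested. These counts are too small to set the list apart from all genes. Ptgs2, which encodes the prostaglandin synthase COX2, was lower in Pre-MET neutrophils (714 against 3518 CPM, log2 fold change -2.24, adjusted p = 0.00914 by edgeR). It was not called without Pre-MET mouse 9 or 10 or Normal mouse 1 or 3, or in Neut_Ptgs2 cells only, and those cells made up 80.2% of Normal and 33.0% of Pre-MET neutrophils. In monocytes the inflammasome adaptor Pycard was higher (637 against 340 CPM, 0.87, adjusted p = 0.0205) and Tmem176b was lower (122 against 261 CPM, -1.11, adjusted p = 0.0443). Neither was called with cells of at least 1000 UMIs or in fits on a single monocyte label, and the sign for Pycard turned in Mon_Ace and Mon_MHC-II cells. Leaving out any one mouse lost Tmem176b, and 4 of 6 leave-outs lost Pycard. In the other 6 main fits, with 2 to 13 pathway genes tested, 0 were called. With mouse as a block, Cxcl2 and Nfkbia were called higher in MET than in distal monocytes. Their log2 fold changes were 1.27 and 0.84 (adjusted p = 0.000901 and 0.00255 by edgeR), beside 3.99% of 1979 genes called. Cxcl2 was also called higher in core than in margin monocytes with that block (1.51, adjusted p = 0.0399 by edgeR), beside 4.28% of 1354 genes.

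Other genes whose levels ran most like each member were ranked by Pearson's r of log2(mean CPM + 10) over 26 labels, among 5564 genes. For Il1b the closest were Snap23 (r = 0.94), AC159261.1, Zfp36, AC153524.3 and Lilra6. For Nlrp3 they were Ptgs2 (r = 0.96), Ptgs2os2, Dusp1, Gm13822 and AC153524.3. For Il1r2 they were Ifitm1 (r = 0.89), Upp1, Snx20, Gm12854 and Cass4. Il1rn ran closest to Ier3 (r = 0.93), Tlr4, Gm15487, Fth1 and Tnfaip2, and Il1a to Tnfrsf23 (r = 0.91), Fnip2, E230032D23Rik, 4930430E12Rik and Gm14636. The labels share plates and libraries, and the labels were themselves built from these cells, so these values are a description. The neighbors depend on the measure, since of the 5 genes named only 1 for Il1rn, Il1a and Nlrp3, 3 for Il1b and 4 for Il1r2 were also among the closest 5 by Spearman's rho.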

How the data were processed

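Each library plate held 384 wells with one sorted cell per well, read out as UMIs. The authors demultiplexed reads with bcl2fastq 2.15.0.4, mapped them with HISAT to mm10 and deposited raw UMI counts per gene and well for 148 plates, with cell labels in a separate annotation. The deposited counts were used unscaled, all plate columns were mapped to samples (0 unmapped), and wells annotated as erythrocytes, outliers or tumor cells or holding under 500 UMIs were left out. Doublets were gated out at the sort, and none were called here. The 592 wells recorded as holding no sorted cell had a median of 8 UMIs.

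Counts were summed per mouse, tissue and label or lineage (at least 10 cells) and tested with edgeR 4.0.16 (TMM, filterByExpr, quasi-likelihood test, Benjamini-Hochberg over all genes tested, threshold 0.05) in R 4.3.3, with DESeq2 1.42.0 as an alternative. Sums and permutation tests used Python 3.11.15, numpy 2.4.6, scipy 1.17.1 and pandas 2.3.3. The number of cells and molecules sets the precision, and floors (3 UMIs) cover counting error only. MET and distal samples, and core and margin samples, came from the same mice. Deviations of the samples of one mouse correlated with a median r of 0.204 in monocytes and 0.116 in macrophages for MET and distal tissue, against -0.0392 and -0.00776 between mice.

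The fit was tested on data simulated with a fixed dispersion, for MET against distal tissue. In monocytes it recovered 73.6% of 2-fold and 100% of 4-fold changes, and in macrophages 8.9% and 83.1%. At that dispersion, with samples drawn independently, a 2-fold change in macrophages was mostly missed. The share missed in the real sums, which share mice, is not known. Alternatives were RLE size factors, no low-count filter, minima of 20 cells or 1000 UMIs per cell, mouse or batch terms and leaving out single samples. The 5 members are all described. Of the 45-gene pathway list each gene called in a main fit was named, and genes called only in alternative fits were not all named. For each member the 5 genes with the highest r over labels were listed. Members and lists were chosen with earlier results of these data known.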

Additional observations from a re-analysis of the deposited data

Results flagged for a closer look

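Of 60 groups of 4 to 10 samples, 15 had a sample that stood far from the others. The cutoff is set to flag about 1 in 20 groups of independent, normally distributed values. These are low counts, and the groups share samples, so the number flagged cannot be set against chance. No cause was tested, and each sample's value is given with the next one.

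Mouse 36 stood out for Il1rn in the invasive margin, with 1182 CPM in macrophages (next 198 CPM) and 796 CPM in monocytes (next 293 CPM). It also had the highest Il1b of the distal neutrophils, 25144 CPM (next 14800 CPM). Mouse 32 stood out in MET neutrophils for Il1a, with 123 CPM (next 47.9 CPM), and for Nlrp3, with 1027 CPM (next 431 CPM).

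Il1r2 stood out in MET DCs of mouse 33 (1280 CPM, next 610 CPM), in MET macrophages of mouse 26 (226 CPM, next 58.4 CPM) and in margin monocytes of mouse 17 (153 CPM, next 51.6 CPM). Il1b stood out in core DCs of mouse 28 (3269 CPM, next 1483 CPM) and in primary tumor macrophages of mouse 8 (2064 CPM, next 836 CPM), and was lowest in primary tumor monocytes of mouse 38 (1746 CPM, next 2685 CPM). Nlrp3 stood out in core macrophages of mouse 17 (133 CPM, next 63.3 CPM) and in Relapse-free monocytes of mouse 35 (129 CPM, next 36.4 CPM), and was lowest in primary tumor monocytes of mouse 9 (10.4 CPM, next 30.4 CPM). Il1rn stood out in Relapse-free monocytes of mouse 18 (89.9 CPM, next 36.4 CPM).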

How the results depend on the processing

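Of the recomputed log2 fold changes of the 5 genes, 222 kept their direction and side of the threshold, 11 passed only in the alternative, 3 no longer passed and 18 changed sign. Label-only fits, the leave-out of the margin of mouse 17 and single leave-outs in MET against distal DCs and core against margin macrophages were added after the data were seen. Causes of these moves were not tested. No single macrophage label had the 3 samples per tissue that its own MET against distal fit would need.

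The number of called members and pathway genes moved as follows. In Pre-MET against Normal neutrophils (1 called) it was 0 with no filter on low counts, with a minimum of 20 cells and in Neut_Ptgs2 cells only, and 0 to 1 when single samples were left out. In monocytes of that comparison (2 called) it was 1 with no filter, 0 with cells of at least 1000 UMIs, 0 in Mon_Fn1, Mon_Ace or Mon_MHC-II cells alone, and 0 to 1 without single samples. Ptgs2 in neutrophils was lost without Pre-MET mouse 9 or 10 or Normal mouse 1 or 3, Tmem176b in monocytes without any one mouse, and Pycard without any but Pre-MET mouse 9 or Normal mouse 2. In MET against distal tissue it was 1 in neutrophils with no filter (0 called), beside 0.026% of all genes. In monocytes (1 called) it was 6 with no filter, 2 with batch as a term and 0 in Mon_Fn1 or Mon_Ace cells alone, where Il1rn was below the filter and not tested. In macrophages (4 called) it was 8 with no filter, 3 with batch as a term and 1 with cells of at least 1000 UMIs. In core against margin monocytes (0 called) it was 1 with RLE size factors, DESeq2 or cells of at least 1000 UMIs, and 2 with no filter. In core against Primary monocytes (0 called) it was 1 with RLE size factors, 3 with DESeq2, 7 with no filter, 2 with a minimum of 20 cells and 4 with cells of at least 1000 UMIs. In macrophages (3 called) it was 8 with no filter, 5 with a minimum of 20 cells, 0 with batch as a term, 1 in Mac_Cd81 cells only and 3 to 4 without single tumors. The share of all genes called moved too. In MET against distal monocytes it was 1.48%, 1.44% with no filter, 3.91% with batch as a term and 0% in Mon_Fn1 or Mon_Ace cells alone. In macrophages it was 9.54%, 2.68% with no filter, 13.4% with batch as a term and 2.49% with cells of at least 1000 UMIs. In core against Primary it was 1.47% and 0.62 to 4.36% under the monocyte settings named, and 4.53% and 0.093 to 8.25% under the macrophage settings. In Pre-MET against Normal it was 1.06% and 0 to 1.51% in neutrophils and 4.32% and 0 to 2.95% in monocytes, and in core against margin monocytes 0% and 0.20 to 1.17%.

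With mouse as a replicate block the number called was 4 in monocytes and 2 in macrophages of MET against distal tissue and 2 in core against margin monocytes. These blocked fits called 3.99%, 15.7% and 4.28% of all genes tested. Beside the calls given with the results, the block changed no call of the 5 genes. The blocked log2 fold change of neutrophil Nlrp3 was -0.0097.

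The log2 fold changes that changed sign were these. In Pre-MET against Normal they were 0.038 for neutrophil Il1b and 0.088 for Il1r2 with no filter, with Il1r2 at -0.59 to 0.23 without single samples. Monocyte Il1b was 0.32 in Mon_Ace and 0.49 in Mon_MHC-II cells. Monocyte Il1rn was -0.029 to 0.16 without single samples. In MET against distal neutrophils, Il1rn was -0.28 in Neut_Lcn2 and Il1r2 was 0.21 in Neut_Ptgs2 cells. In core against margin macrophages, Il1b was -0.60 in Mac_Gpnmb cells and Il1rn -0.20 with batch as a term. In core against Primary, monocyte Il1rn was -0.19 with no filter, and macrophage Il1b was -0.11 with no filter, -0.56 with batch as a term and -0.12 in Mac_Cd81 cells, where Il1rn was -0.76. Without single tumors, monocyte Il1rn was -0.0070 to 0.20 and macrophage Il1b -0.019 to 0.70. The Nlrp3 difference between neutrophils and monocytes was 0.34 with a pseudocount of 1 CPM and 0.039 with a minimum of 20 cells.

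Of the recomputed label levels, 230 moved by less than 1 SD and 5 by more. Depth limits Nlrp3, Il1a and the distal macrophage values, which rest on a few molecules per sample.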
